A study of Mus musculus with 6 samples.

Results

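The transcripts described here are those of 8 MHC class I genes of the mouse, 7 heavy chain genes (H2-K1, H2-D1, H2-Q4, H2-Q6, H2-Q7, H2-T22 and H2-T23) and B2m, which encodes beta-2 microglobulin. They were taken from the gene table by exact match of the gene symbol, and each of the 8 had 1 row of its own among 46958 rows. The table holds 6 RNA sequencing libraries of dermal fibroblasts from newborn mice of 1 to 2 days. Of these, 3 came from RORγ wild type cells (RORγ+/+) and 3 from cells labelled RORγ knockout (RORγ-/-), RORγ being a nuclear receptor that binds sterols. Within each genotype, 1 library each came from cells given 20(OH)L3, 20(OH)Cholesterol or 20(OH)7DHC, which are hydroxylated forms of lumisterol, cholesterol and 7-dehydrocholesterol, at 100 nM for 24 h. All cells were pooled from different mice, used at an early passage and treated in charcoal-stripped serum with ethanol as solvent; an ethanol library was not analysed here. The labels give neither the strain nor the H2 haplotype of the mice, and the genotypes are as labelled.

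MHC class I molecules sit on the surface of nearly all nucleated cells and show peptides from the cell's own proteins to CD8 T cells. The heavy chain binds the peptide, and beta-2 microglobulin is the small shared subunit without which most class I molecules do not reach the surface. H2-K1 and H2-D1 are classical class I genes, whose products carry most peptide presentation. H2-Q6 and H2-Q7 encode Qa-2 molecules, and H2-T23 encodes Qa-1, which is read by the CD94/NKG2A receptor of natural killer cells. H2-T22 encodes a nonclassical molecule that some gamma delta T cells recognise. Interferons are known to raise transcription of class I genes, and NLRC5, interferon regulatory factors and NF-κB act at their promoters.

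Each transcript was far lower in the libraries labelled knockout than in wild type, under each of the 3 sterols. H2-Q4 was down to about 1 FPKM from 107, H2-K1 and H2-D1 were 10.1 to 22.8 times lower, and B2m was 3.70 to 5.21 times lower. When the sterols were compared with one another, none of the 8 passed the test.

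The promoters are shown first because the letters of the known class I control elements can be followed from gene to gene. The part of these elements in the differences between the genotypes was not tested. The stretches are from RefSeq on GRCm38.p6, which held promoters for all 8 genes, and are written 5′ to 3′ on the strand of the gene. Capitals mark letters that match 1 of 5 motifs searched on both strands. These are GAANNGAAA and AAANNGAAA (cores of the interferon-stimulated response element, the second added after the sequences were seen), GGGATTCCC (the NF-κB site of enhancer A), TGACGC (part of the X box, also called site alpha) and CCAAT (the core of the Y box). The first 2 differ in their first letter, so 1 position on a strand cannot match both.
H2-K1, chr17:34000328-34000473, minus strand: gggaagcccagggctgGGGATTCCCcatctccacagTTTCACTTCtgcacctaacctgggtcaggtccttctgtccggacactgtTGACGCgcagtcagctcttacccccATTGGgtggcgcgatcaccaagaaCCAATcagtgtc
H2-D1, chr17:35262908-35263053, plus strand: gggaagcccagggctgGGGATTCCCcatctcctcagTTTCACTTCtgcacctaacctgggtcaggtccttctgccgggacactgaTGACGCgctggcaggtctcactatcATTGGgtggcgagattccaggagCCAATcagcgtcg
H2-Q4, chr17:35379428-35379573, plus strand: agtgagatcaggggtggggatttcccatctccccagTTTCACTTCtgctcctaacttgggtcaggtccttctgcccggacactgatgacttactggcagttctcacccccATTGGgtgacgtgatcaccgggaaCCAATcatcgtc
H2-Q6, chr17:35424662-35424807, plus strand: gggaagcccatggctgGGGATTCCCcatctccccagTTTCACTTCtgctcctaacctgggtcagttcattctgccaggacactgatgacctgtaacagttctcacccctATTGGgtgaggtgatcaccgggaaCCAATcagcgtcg
H2-Q7, chr17:35439006-35439151, plus strand: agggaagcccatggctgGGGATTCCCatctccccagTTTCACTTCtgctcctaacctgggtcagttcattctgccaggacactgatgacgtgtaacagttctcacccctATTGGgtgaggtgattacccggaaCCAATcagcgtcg
H2-T22, chr17:36042824-36042969, minus strand: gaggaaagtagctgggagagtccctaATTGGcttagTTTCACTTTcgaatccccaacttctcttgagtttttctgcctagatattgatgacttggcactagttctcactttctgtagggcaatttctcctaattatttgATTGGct
H2-T23, chr17:36032716-36032861, minus strand: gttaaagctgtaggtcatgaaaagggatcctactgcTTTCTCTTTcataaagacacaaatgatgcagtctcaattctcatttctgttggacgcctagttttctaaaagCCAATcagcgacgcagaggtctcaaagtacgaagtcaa
B2m, chr2:122147513-122147658, plus strand: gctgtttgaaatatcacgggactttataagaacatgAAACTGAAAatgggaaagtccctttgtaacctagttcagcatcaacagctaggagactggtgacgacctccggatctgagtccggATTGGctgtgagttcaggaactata

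In the windows from 250 bases before to 50 bases after the RefSeq start, GAANNGAAA was found in 5 of the 8 genes, H2-K1, H2-D1 and the 3 H2-Q genes. Of 32851 promoter windows of the same length, 7.52% hold it. The other 3 genes, H2-T22, H2-T23 and B2m, hold AAANNGAAA, which is in 10.6% of all windows. GGGATTCCC was found in H2-K1, H2-D1, H2-Q6 and H2-Q7, and in 0.353% of all windows. TGACGC was in 3 of the 8, H2-K1, H2-D1 and H2-Q4, in the last only in letters outside the stretch printed, and in 7.40% of all windows. CCAAT was in all 8, and in 37.4% of all windows. H2-K1, H2-D1 and the H2-Q genes share ancestry, so their matches are not independent of one another.

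The layout was closest among H2-K1, H2-D1 and the H2-Q genes. From the first base of the response element to the first base of the next Y box core there are 74 bases in H2-K1, H2-D1 and H2-Q4 and 73 in H2-Q6 and H2-Q7. In H2-T23 the distance is 72 bases, but to CCAAT on the strand of the gene, where H2-K1, H2-D1 and the H2-Q genes have ATTGG. These spacings are therefore not to like matches. In B2m the distance to ATTGG is 85 bases, and its response element letters lie on the opposite strand from those of the heavy chain genes. In H2-T22 the nearest following match lies 103 bases on, and another Y box core lies just ahead of the response element. Enhancer A starts 20 bases ahead of the response element in H2-K1, H2-D1 and H2-Q6 and 19 bases ahead in H2-Q7. A match of letters does not show that a factor binds, and a missing match says only that these letters are not in the window.

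**Figure D1:**
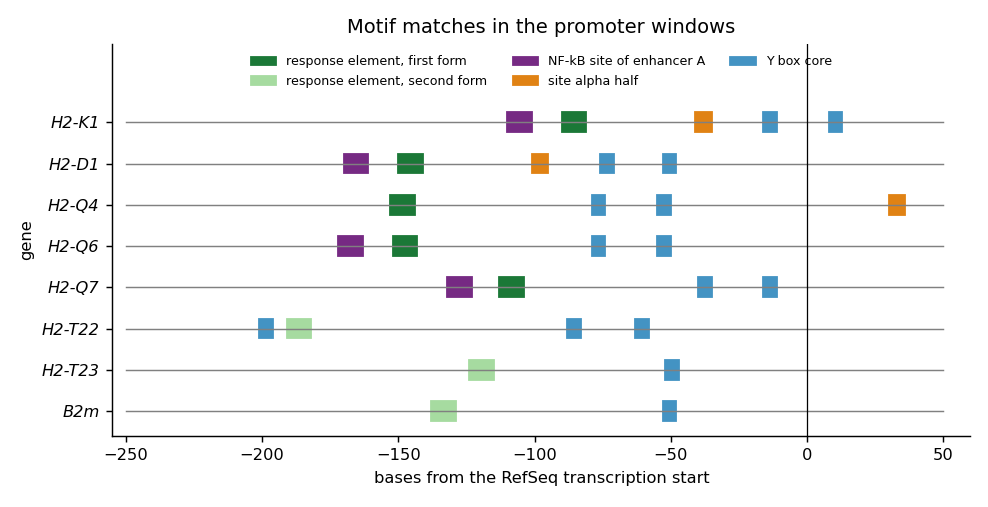
Motif matches in the promoter windows of the 8 class I genes, by distance in bases from the RefSeq start (x axis) and 1 gene a line. The first form of the response element core is marked in H2-K1, H2-D1 and the H2-Q genes. The second form, added after the sequences were seen, is marked in H2-T22, H2-T23 and B2m. The Y box core is marked in each gene, and the enhancer A site in H2-K1, H2-D1, H2-Q6 and H2-Q7.

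The values are FPKM, fragments scaled by transcript length and by library size. Levels of genes of unlike length are set side by side with a limit, since short transcripts shifted between libraries, as given below. Where 3 values are given for a genotype, they stand in the order 20(OH)L3, then 20(OH)Cholesterol, then 20(OH)7DHC. Depth is not stated, and low values fell on steps that put it at an estimated 12350000 to 13050000 fragments for wild type and 7700000 to 13150000 for the libraries labelled knockout. At that depth, 1 fragment on a 1 kb transcript is worth 0.076 to 0.13 FPKM. The labelled knockout library with 20(OH)7DHC stood apart: 20.8% and 24.4% of the tested rows differed more than 2-fold between it and the other libraries of its label, against 9.90% between those other libraries and 2.55% to 3.51% between wild-type libraries. Short protein-coding transcripts, under 1000 nt, were raised in the labelled knockout by a median of 1.23 and 1.02 on the log2 scale with 20(OH)L3 and 20(OH)Cholesterol and by 0.03 with 20(OH)7DHC. FPKM summed over all rows was 1775205, 1597788 and 931596 in the labelled knockout, and 866528 to 902962 in wild type. The libraries also differed in a Y-linked transcript, with Eif2s3y at 26.9 to 35.0 FPKM in wild type and 0 to 1.41 in the labelled knockout, and its part in the results was not tested. In bulk libraries, fewer cells of a type and less RNA per cell cannot be told apart.

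H2-K1 and H2-D1 were the most abundant heavy chain transcripts in both genotypes. H2-K1 lies on the minus strand of chromosome 17 at chr17:33996017-34000347 (GENCODE M21 on GRCm38). In wild type it read 678 FPKM with 20(OH)L3, 925 with 20(OH)Cholesterol and 819 with 20(OH)7DHC, and in the labelled knockout 53.8, 91.8 and 35.9 in the same order. The genotypes did not overlap, and the lowest wild-type library was far above the highest labelled knockout library. The mean was 807 ± 124 FPKM (SD, n = 3) in wild type and 60.5 ± 28.6 (SD, n = 3) in the labelled knockout. Wild type was 12.6, 10.1 and 22.8 times higher by sterol. On the log2(FPKM + 1) scale the limma estimate over all 6 libraries was -3.81 (SE 0.300, 95% interval -4.58 to -3.04, adjusted p = 0.00519).

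H2-D1, at chr17:35262730-35267499 on the plus strand, had the steadiest values of the 8 in the labelled knockout. Its wild-type levels were 778, 950 and 849 FPKM, and its labelled knockout levels were 67.6, 73.0 and 70.9. The highest of these last 3 was 1.08 times the lowest, whereas for H2-K1 the highest was 2.56 times the lowest. Means were 859 ± 86.4 and 70.5 ± 2.75 FPKM (SD, n = 3 each), and the difference by sterol was 11.5-, 13.0- and 12.0-fold. The limma estimate was -3.58 (SE 0.214, 95% interval -4.13 to -3.03, adjusted p = 0.00241).

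The H2-Q genes lie close together on the plus strand of chromosome 17 and had the largest differences of the 8 on the log2(FPKM + 1) scale. H2-Q4, a Qa-type heavy chain gene at chr17:35379617-35385290, read 91.9, 122 and 108 FPKM in wild type and 1.45, 0.647 and 1.04 in the labelled knockout. Its lowest wild-type value was 63.4 times that of the labelled knockout with the same sterol, and the ratios with 20(OH)Cholesterol and 20(OH)7DHC were 188 and 105. Means were 107 ± 15.0 and 1.04 ± 0.401 FPKM (SD, n = 3 each). The limma estimate was -5.74 (SE 0.247, 95% interval -6.37 to -5.10, adjusted p = 0.00153), which placed H2-Q4 at rank 25 among the most lowered of 12673 rows tested.

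H2-Q6, at chr17:35424850-35430055, read 18.2, 31.4 and 25.7 FPKM in wild type. In the labelled knockout it was listed at 0, 0.410 and 0. H2-Q7, at chr17:35439155-35443773, read 20.8, 32.6 and 24.6 FPKM in wild type and was listed at 0.354, 0.276 and 0 in the labelled knockout. Both therefore fell from a clear signal in each wild-type library to values worth a few fragments or to a listed 0, and the genotypes did not overlap. Fitted differences were -4.51 for H2-Q6 (SE 0.216, limma adjusted p = 0.00161) and -4.47 for H2-Q7 (SE 0.244, limma adjusted p = 0.00188). At such low values the fitted size is set in part by the added 1 FPKM, and it ran from -7.16 to -2.53 for H2-Q6 and from -6.64 to -2.56 for H2-Q7 over the other settings tried, the smallest with 5 FPKM added.

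The H2-T genes lie near each other on the minus strand and kept a measurable level in the labelled knockout. H2-T22, at chr17:36037128-36042747, read 120, 108 and 109 FPKM in wild type and 14.6, 15.9 and 9.05 in the labelled knockout. Means were 113 ± 6.73 and 13.2 ± 3.65 FPKM (SD, n = 3 each), and wild type was 8.22, 6.81 and 12.0 times higher by sterol. The limma estimate was -3.03 (SE 0.225, 95% interval -3.61 to -2.46, adjusted p = 0.00452). H2-T23, at chr17:36029773-36032855, read 42.9, 50.7 and 44.6 FPKM in wild type and 2.77, 5.57 and 3.06 in the labelled knockout. Its highest labelled knockout value came with 20(OH)Cholesterol and stayed below each wild-type value. The means were 46.1 ± 4.10 and 3.80 ± 1.54 FPKM (SD, n = 3 each), with a limma estimate of -3.34 (SE 0.206, 95% interval -3.86 to -2.81, adjusted p = 0.00272).

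B2m was the most abundant of the 8 in each library and fell by the smallest factor. It lies apart from the heavy chain genes, at chr2:122147686-122153083 on the plus strand. In wild type it read 2960, 3111 and 3276 FPKM, and in the labelled knockout 801, 664 and 629. These groups did not overlap either, and wild type was 3.70, 4.69 and 5.21 times higher by sterol. Means were 3115 ± 158 and 698 ± 90.7 FPKM (SD, n = 3 each). The limma estimate was -2.16 (SE 0.307, 95% interval -2.95 to -1.38, adjusted p = 0.0210). The call was lost when a 20(OH)L3 or a 20(OH)Cholesterol library was left out, and fewer of all rows were then called lower. Without either 20(OH)L3 library the estimate was -2.30 (limma adjusted p = 0.157 or 0.148), with 1.47% or 1.57% of all rows called lower. Without either 20(OH)Cholesterol library the estimate was -2.13 (limma adjusted p = 0.240 or 0.257), with 0.849% or 0.702% called lower. Without either 20(OH)7DHC library B2m still passed, at -2.06 (limma adjusted p = 0.0327 or 0.0296), with 8.17% or 8.89% called lower. The B2m transcript has 860 nt and so belongs to the short class that was raised in 2 of the labelled knockout libraries. With 20(OH)7DHC, where that class was level, its log2 difference was -2.38, and with each library's length trend removed the limma estimate was -2.62.

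**Figure D2:**
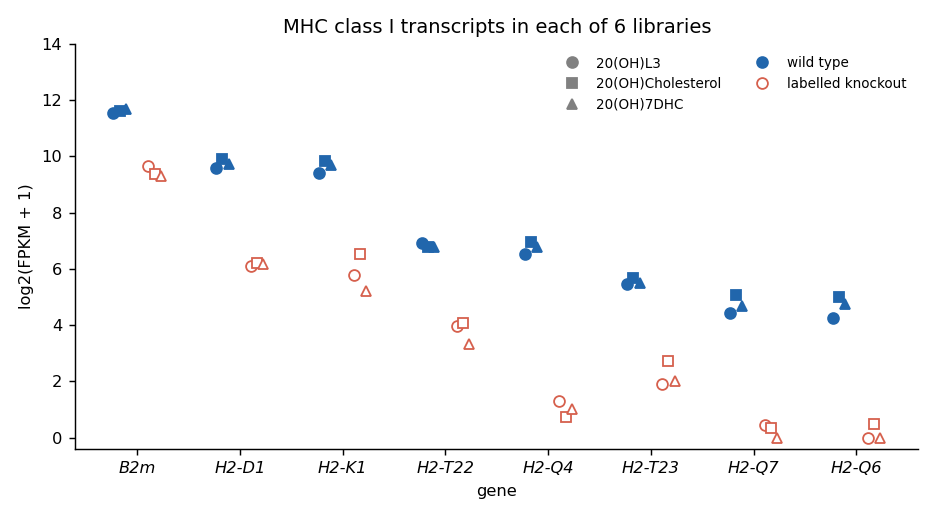
Level of each class I transcript in each of the 6 libraries (y axis, log2(FPKM + 1)), with 1 point a library and colours for the labelled genotypes. The 3 labelled knockout points lie below the 3 wild-type points for each of the 8 transcripts.

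All 8 passed the test as lower, where 6.64% of the 12673 tested rows did, and 0 passed as higher, where 2.43% did. The tests came from limma with genotype and sterol as terms, 2 residual degrees of freedom and Benjamini-Hochberg adjustment at 0.05 over all rows tested. H2-Q6 and H2-Q7, whose labelled knockout means were under 1 FPKM, entered the test only through wild type. All 8 had their 3 labelled knockout values below their 3 wild-type values, which held for 22.9% of all rows. All 8 were also past 2-fold lower on the log2(FPKM + 1) scale in each sterol, against 16.5% of rows with 20(OH)L3, 15.4% with 20(OH)Cholesterol and 10.1% with 20(OH)7DHC. Their median difference was -3.70, beside -0.001 for all rows. The sterol terms absorb the spread between sterols, so the p-values measure how the genotype difference varies over the 3 sterol pairs. Each combination of genotype and sterol has a single library, and no separate cultures are named. Without either 20(OH)Cholesterol library the count of lowered transcripts was 4, since H2-K1 (limma adjusted p = 0.0593 or 0.0752), H2-D1 (0.0594 or 0.0759) and H2-T22 (0.0561 or 0.0634) missed the threshold beside B2m. The estimates moved little, to -4.05, -3.53 and -3.20, and the share of all rows called lower fell to 0.849% or 0.702%. Without the labelled knockout 20(OH)7DHC library, which stood apart, all 8 passed, where 8.89% of all rows were called lower.

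**Figure D3:**
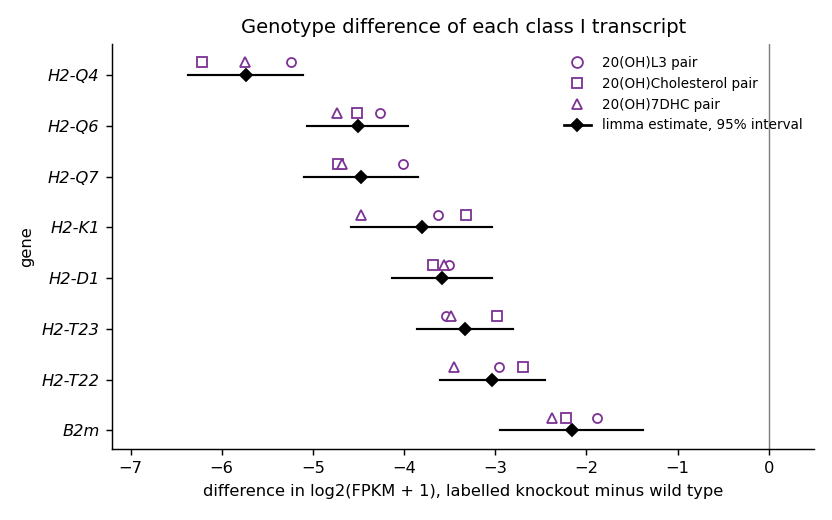
Difference in log2(FPKM + 1), labelled knockout minus wild type, for each class I transcript (x axis). Black diamonds with bars are limma estimates with 95% intervals over 6 libraries and open symbols are the 3 sterol pairs. H2-Q4 lies farthest from 0 at -5.74 and B2m nearest at -2.16.

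The order of levels changed between the genotypes. In wild type B2m was followed by H2-D1 and H2-K1, whose means of 859 and 807 FPKM differed by less than their SDs. H2-T22 and H2-Q4 came next at 113 and 107 FPKM, again within their SDs. H2-T23 was lower at 46.1 FPKM, and H2-Q7 and H2-Q6 closed the order at 26.0 and 25.1 FPKM, within their SDs of 6.04 and 6.60. In the labelled knockout H2-D1 and H2-K1 again differed by less than the SD of H2-K1. H2-T23 stood above H2-Q4 in each labelled knockout library, whereas H2-Q4 stood above H2-T23 in each wild-type library.

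Summed over the 7 heavy chain genes, wild type held 1750, 2220 and 1980 FPKM, and the labelled knockout 141, 188 and 120. The sum is less open than its parts to fragments split between H2 genes, and it was 12.5, 11.8 and 16.5 times higher in wild type. B2m therefore stood at 1.69, 1.40 and 1.65 times the heavy chain sum in wild type and at 5.70, 3.54 and 5.25 times in the labelled knockout. These ratios did not overlap, with means of 1.58 ± 0.158 and 4.83 ± 1.14 (SD, n = 3 each). B2m, at 860 nt, is in the short class that was raised in the labelled knockout with 20(OH)L3 and 20(OH)Cholesterol, which limits those ratios. With 20(OH)7DHC, where that class was level, the ratio was 1.65 in wild type and 5.25 in the labelled knockout. H2-Q4, H2-Q6 and H2-Q7 together made up 7.48%, 8.38% and 8.01% of the sum in wild type and 1.28%, 0.711% and 0.864% in the labelled knockout. H2-T22 went the other way as a share, from 4.88% to 6.87% in wild type to 7.55% to 10.4% in the labelled knockout. H2-K1 stood at 0.872 to 0.974 times H2-D1 in wild type, and at 0.796, 1.26 and 0.506 times in the labelled knockout. These shares are descriptions with no test.

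**Figure D4:**
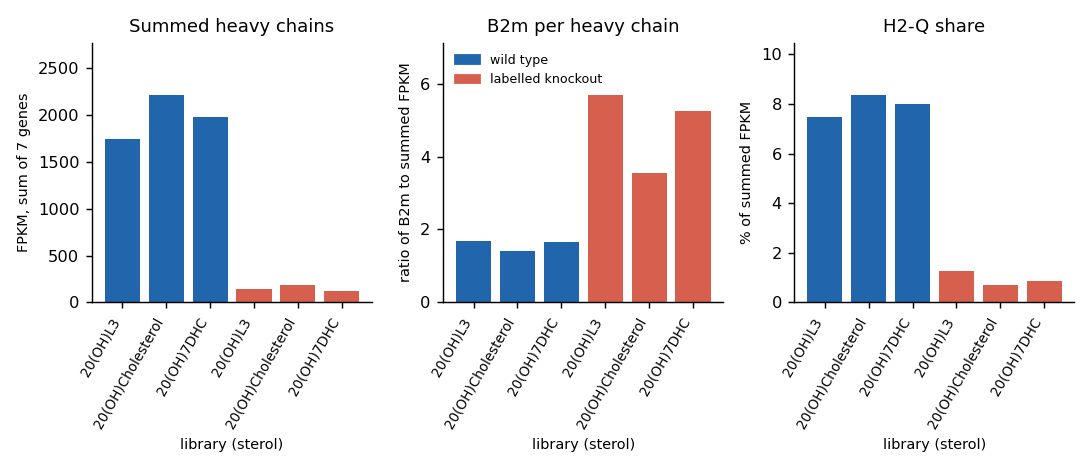
Summed FPKM of the 7 heavy chain genes (left), B2m FPKM divided by that sum (middle) and the percent of the sum held by H2-Q4, H2-Q6 and H2-Q7 (right), with 1 bar a library. The labelled knockout bars are lower at left and right and higher in the middle for each sterol.

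Class I genes resemble one another, so a fragment can fit several of them. Of the 50-base windows of the main H2-K1 transcript, 8.79% also occur in a transcript of another gene, and of the H2-D1 windows 14.3%. The share was 24.3% for H2-Q4, 32.0% for H2-Q6, 34.9% for H2-Q7, 44.7% for H2-T22 and 28.8% for H2-T23. For H2-T22 the overlap was mostly with H2-T10, at 37.9%, and for H2-Q7 mostly with H2-Q6, at 19.3%. At 100 bases H2-K1 shared none of its windows, and the others shared from 2.66% for H2-Q4 to 16.4% for H2-Q7. B2m shared 0% at either length. How the deposited values treat such fragments is not given in the sources used here, so single levels of H2-Q6, H2-Q7 and H2-T22 are uncertain. Sequence differences between the mice and the reference haplotype could also change which fragments are counted, and this was not tested.

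The sterols were compared pairwise at the matched dose and time, 3 pairs for 8 transcripts, with 1 library of each genotype per sterol. None of the 24 differences passed with limma at an adjusted p of 0.05, and 0 of 24 had an unadjusted p under 0.05, the smallest being 0.0648. Of all 12673 rows, 0% passed for 20(OH)Cholesterol against 20(OH)L3, 0.0395% for 20(OH)7DHC against 20(OH)L3 and 0.0395% for 20(OH)7DHC against 20(OH)Cholesterol, with 242, 482 and 221 rows at an unadjusted p under 0.05. The estimates for the 8 ran from -0.75 to 0.62 on the log2(FPKM + 1) scale. With 0.1 FPKM added in place of 1 they ran from -1.32 to 1.57, both for H2-Q6, again with none passing. The lowest was H2-K1 with 20(OH)7DHC against 20(OH)Cholesterol, at -0.75 (95% interval -1.70 to 0.19, limma adjusted p = 0.830 over all rows, 0.891 over the 3 pairs as well). The highest was H2-Q6 with 20(OH)Cholesterol against 20(OH)L3, at 0.62 (95% interval -0.06 to 1.30, limma adjusted p = 1, or 0.891 over the 3 pairs as well). H2-K1 in that pair was at 0.60 (95% interval -0.34 to 1.55). 20(OH)7DHC differs from 20(OH)Cholesterol by an added double bond in the ring system. Intervals this wide include differences past 2-fold for H2-K1, H2-Q6, H2-Q7, H2-T22, H2-T23 and B2m, each in at least 1 pair. A miss therefore does not show that the compounds act alike.

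Among 27 other class I and class I-like genes, 22 had a row of their own and 9 were high enough to test; 3 passed as lower, 0 as higher and 6 did not pass, with a median of -0.90, beside 6.64% lower, 2.43% higher and -0.001 for all rows. H2-T10 and H2-Q5 reached the mean of 1 FPKM needed for a test only through wild type, so they had to differ. H2-M5 and H2-M9 were too low to test and had higher means in the labelled knockout, 0.941 against 0.136 FPKM and 0.668 against 0.0293 FPKM. H2-T10, the close relative of H2-T22, went from 10.7 ± 1.19 to 0.492 ± 0.554 FPKM (SD, n = 3 each; limma log2 difference -3.03, adjusted p = 0.00823). H2-M3, which presents formylated peptides, went from 9.26 ± 0.756 to 3.37 ± 0.958 FPKM (SD, n = 3 each; limma -1.25, adjusted p = 0.0304). H2-Q5, named after its values were seen, read 4.24, 6.45 and 7.62 FPKM in wild type and was listed at 0 in each labelled knockout library (limma adjusted p = 0.00975). Among class I-like genes with other jobs, Procr, the endothelial protein C receptor, read 69.3 to 78.4 FPKM in wild type and 34.9 to 49.4 in the labelled knockout (limma -0.74, adjusted p = 0.0787). Fcgrt, the heavy chain of the neonatal Fc receptor, which also pairs with beta-2 microglobulin, read 55.3 to 63.9 and 21.6 to 48.1 FPKM (limma -0.90, adjusted p = 0.0820). Neither passed.

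Of 13 tested regulators of class I transcription, 4 passed as lower, 0 as higher and 9 did not pass, with a median of -0.34, where 6.64% of all rows were lower and 2.43% higher. Nlrc5, with a labelled knockout mean of 0.502 FPKM, was tested only through its wild-type level. Nlrc5, the class I transactivator, read 6.12, 10.3 and 11.3 FPKM in wild type and 0.144, 0.0845 and 1.28 in the labelled knockout (limma -2.82, adjusted p = 0.00931). Irf1, an interferon regulatory factor that binds the response element, went from 42.6 ± 5.39 to 6.34 ± 2.39 FPKM (SD, n = 3 each; limma -2.62, adjusted p = 0.0104). Nfkb1, which encodes the p50 subunit of NF-κB, went from 50.8 ± 5.73 to 17.2 ± 3.54 FPKM (SD, n = 3 each; limma -1.52, adjusted p = 0.0137). Rfx5, a subunit of the complex on the X box, was at the edge of the threshold (limma -1.58, adjusted p = 0.0492). The partner Rela was level, at 46.1 ± 2.55 and 46.7 ± 9.22 FPKM (SD, n = 3 each; limma adjusted p = 0.998). Atf1, a factor of the CREB family, and Rfxap, another subunit on the X box, did not pass, at -0.53 (limma adjusted p = 0.405) and 0.73 (limma adjusted p = 0.0927). For Atf1 the log2 difference changed sign, at -1.30 with 20(OH)L3, -0.98 with 20(OH)Cholesterol and 0.68 with 20(OH)7DHC.

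Of 12 tested genes of peptide generation and loading, 5 passed as lower, 0 as higher and 7 did not pass, with a median of -0.41, where 6.64% of all rows were lower and 2.43% higher. The 4 most abundant of the list, the chaperones Calr, Pdia3 and Canx and the proteasome subunit Psmb10, were among the 7, with limma estimates of -0.20, -0.35, -0.17 and -0.33. The 5 that passed are named after their values were seen. Psmb9 and Psmb8, like Psmb10 catalytic subunits of the immunoproteasome, had limma estimates of -4.40 and -4.01, and Tap1 and Tap2, the peptide transporter, -3.04 and -2.03. Erap1, which trims peptides in the endoplasmic reticulum, was at -1.55 (limma adjusted p = 0.0492). The merged row Tapbp/Zbtb22, which holds the tapasin gene, read 99.8 ± 12.3 and 29.5 ± 1.71 FPKM (SD, n = 3 each; limma -1.72, adjusted p = 0.0132).

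**Figure D5:**
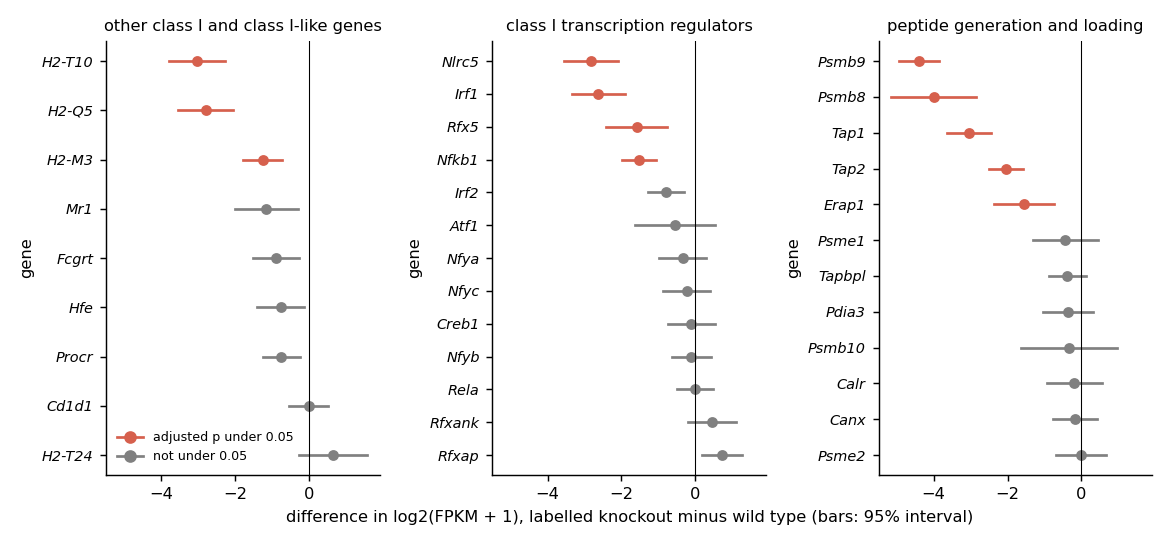
Limma estimates with 95% intervals (x axis, log2(FPKM + 1), labelled knockout minus wild type) for tested genes of 3 related lists. Red marks an adjusted p under 0.05, and the lists hold 3 of 9, 4 of 13 and 5 of 12 such genes, each lower in the labelled knockout.

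Interferon receptors did not pass, with 3 tested. Ifngr1 and Ifngr2, the chains of the interferon gamma receptor, read 46.7 ± 1.08 and 60.2 ± 6.05 FPKM in wild type and 39.0 ± 7.41 and 42.9 ± 4.56 in the labelled knockout (SD, n = 3 each). Ifnar1, a chain of the type I receptor, was at -0.58 (limma adjusted p = 0.165). The interferon gamma gene itself, Ifng, was listed at 0 in each of the 6 libraries. Ifnb1, which encodes interferon beta, was listed at 0, 0.139 and 0.415 FPKM in wild type and at 0 in each labelled knockout library, too low to test. Ligands of activating natural killer receptors had no row of their own high enough to test, and the merged row H60b/Raet1d/Raet1e went from 29.1 ± 0.805 to 10.1 ± 1.89 FPKM (SD, n = 3 each; limma -1.45, adjusted p = 0.0165).

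Markers of other cell types were low in each library. Summed over 8 leukocyte markers with a row of their own, wild type held 10.5 to 13.6 FPKM and the labelled knockout 7.63 to 14.5, so the sums overlapped. Of the 8, 3 (Cd3e, Adgre1 and Tyrobp) were listed at 0 in all 6 libraries, and Ptprc was at 0 in 5 of them. Csf1r, Cd68 and Lyz2 make up most of the sums and did not move together. Their wild-type means were 3.79, 3.23 and 4.66 FPKM, and their labelled knockout means 4.31, 5.97 and 1.38. None of these 3 passed (limma adjusted p = 0.670, 0.244 and 0.0739). Keratinocyte marker sums were 4.28 to 5.73 FPKM in wild type and 7.05 to 13.6 in the labelled knockout, and endothelial sums 1.52 to 2.90 and 1.94 to 4.56. Melanocyte and Schwann cell sums were 5.91 to 8.26 and 4.03 to 18.4 FPKM. Fibroblast markers were present, and most were lower beside the class I transcripts. Of 7 tested, 4 passed as lower (Col1a1, Col1a2, Dcn and Lum, against 6.64% of all rows) and 0 as higher, with a median of -2.20. Lum, with a labelled knockout mean of 0.036 FPKM, was tested only through its wild-type level. In 6 of the 7 the 3 labelled knockout values lay below the 3 wild-type values, which held for 22.9% of all rows. In Vim the labelled knockout values lay above those of wild type. Thy1 and Pdgfrb, named after their values were seen, went from 195 ± 3.33 to 54.2 ± 47.6 FPKM (limma adjusted p = 0.0593) and from 52.4 ± 4.85 to 27.8 ± 12.3 FPKM (limma adjusted p = 0.0893; SD, n = 3 each). The merged row AC125167.1/Col3a1 was at -2.45 (limma adjusted p = 0.0101). Vim, an intermediate filament gene, read 3095 ± 250 and 4414 ± 521 FPKM (SD, n = 3 each; limma adjusted p = 0.372). Dcn, which encodes decorin, went from 1297 ± 175 to 14.5 ± 7.94 FPKM (SD, n = 3 each; limma -6.55, adjusted p = 0.00344). The part of these markers in the class I differences was not tested.

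The 5 rows most like B2m over the 6 libraries, by the root mean square difference of log2(FPKM + 1) profiles centred on their own means, were Adora2b (0.0840), Dram1 (0.117), Tlr3 (0.146), Sepp1 (0.149) and Sirpa (0.167). Adora2b, an adenosine receptor gene, read 24.9 to 27.0 FPKM in wild type and 4.92 to 5.62 in the labelled knockout. For H2-K1 the 5 were Cxcl3 (0.168), Ifitm3 (0.172), Il1rl1 (0.243), Col6a2 (0.244) and Cpxm1 (0.272). Ifitm3, an interferon-induced membrane protein gene, read 2209, 2700 and 2552 FPKM in wild type and 221, 355 and 136 in the labelled knockout. The search covered 7607 rows that averaged 5 FPKM or more, and with 6 libraries the genotype difference sets most of the likeness. Apart from Adora2b and Ifitm3, the rows named had labelled knockout means under 5 FPKM. Only their wild-type values brought those into the search.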

How the data were processed

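Messenger RNA of 6 libraries was measured, and groups follow the genotype and treatment in the labels; the design text names other compounds and ethanol-treated cells. The deposited values are FPKM per gene in 1 table of 46958 rows, and all its sample columns were mapped. The tools Cuffdiff, Cufflinks 2.2.1 and STAR 2.5.4b and the build GRCm38 are those of the submitters' processing notes. Which annotation, strand setting, filter and rule for multiply placed fragments were used is not given in the sources used here. There are 1061 rows that merge overlapping symbols, and these stay out of the lists.

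The FPKM as deposited were put on a log2(FPKM + 1) scale, which understates the change of low genes, and the 12673 rows averaging 1 FPKM or more were tested. An additive model of genotype and sterol was fitted to the 6 libraries with limma 3.58.1 (R 4.3.3), with an intensity trend, 2-sided moderated tests and Benjamini-Hochberg adjustment over all rows. Degrees of freedom were 2 residual and 3.04 prior. The fit was tried on simulated data in which all rows had the same spread, so that trial does not cover the unequal spreads of these data. Depth was estimated from low values, of which 97.2% to 98.3% were whole fragments within 0.05. Transcript sharing was counted on GENCODE M21. Tables and figures used pandas 2.3.3, numpy 2.4.6 and matplotlib 3.10.9 under Python 3.11.15.

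The 8 genes and the gene lists were chosen with earlier results of these data known. The naming rule took all 8, up to 4 genes with the highest mean FPKM from each list, regulators that passed and the 5 rows most like B2m and H2-K1; other names were chosen after their values were seen. Some lists have more genes than are named, and for those only counts or sums are given. Alternatives were other pseudocounts, filters, scalings and priors, no sterol or genotype term, a removed length trend, leaving out a library or sterol, and the heavy chains as 1 summed row. A planned check of the genotype labels is not reported here, and a planned comparison of proteins was not made.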

Additional observations from a re-analysis of the deposited data

How the results depend on the processing

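The genotype differences kept their sign in each of the 19 alternatives run for each of the 8 transcripts. H2-Q4, H2-Q6, H2-Q7 and H2-T23 also kept their calls in all of them. B2m missed the threshold with all rows above 0 in any library tested (-2.16, limma adjusted p = 0.112), without both 20(OH)L3 libraries (-2.30, adjusted p = 0.120) and without both 20(OH)Cholesterol libraries (-2.13, adjusted p = 0.216), and over the other alternatives that kept all libraries its estimate ran to -2.79. With 1 library left out at a time, the number of lowered transcripts ran from 4 to 8, and the estimates ran from -4.05 to -3.48 for H2-K1 (adjusted p 0.0296 to 0.0752), -3.62 to -3.53 for H2-D1 (0.0296 to 0.0759), -3.20 to -2.82 for H2-T22 (0.0296 to 0.0634) and -2.30 to -2.06 for B2m (0.0296 to 0.257). The sterol left with a lone library is then absorbed by its own term, so 4 libraries carry the estimate. The sterol term pairs the genotypes within each sterol, and without it all 8 stayed lower, and the 7 heavy chains as 1 summed row gave -3.74. Of 240 refits of sterol differences none passed, the smallest limma adjusted p was 0.647, and 15 changed sign. Depth limits H2-Q6 and H2-Q7 in the labelled knockout, where the values are worth a few fragments or 0.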
